A study of Mus musculus with 12 samples.

Results

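Chaperone and stress genes of the cytosol and the endoplasmic reticulum (ER) were followed in the mammary gland of hormone-treated mice. The set held 40 listed genes, and its members were all probe sets of the expression table annotated to them. Probe sets were found for 38 of the 40 genes, of 18193 genes annotated in the whole table. Hsf1 and Hsp90ab1 were not analysed here. The 38 genes had 90 probe sets, of which 77 were bright enough to be tested and 13 were not. Each of the 38 genes had at least 1 tested probe set, and each is represented below by its brightest, taken over all 12 arrays. The 13 dim probe sets belonged to genes that had a brighter one.

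The heat shock response raises cytosolic chaperones when proteins lose their fold. Its main factor, HSF1, binds repeated GAA units in front of genes such as the inducible HSP70 genes Hspa1a and Hspa1b. The unfolded protein response does the same for the ER: the sensors ATF6, IRE1 (encoded by Ern1) and PERK raise ER chaperones, degradation factors and, through the factors ATF4 and CHOP, genes of amino acid supply and cell death. Mammary epithelium makes large amounts of secreted protein in pregnancy and lactation, and ER chaperones serve that load.

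The arrays measured RNA of the mammary gland of ovariectomized BALB/c females aged 10 weeks. The 4 groups were wild type and progesterone receptor null mice after 8 h or 24 h of progesterone, with 3 arrays each. All mice, null mice included, received 100 ng of 17β-estradiol under the skin for 24 h and then 100 ng of 17β-estradiol with 2.5 ug of progesterone for 8 or 24 h, so the later groups also had estradiol for longer. No group without progesterone was used here, and the labels do not describe the null allele. Each array held RNA pooled from 3 mice, and the arrays within a group are called biological replicates in the labels. In bulk tissue such as this, fewer cells of a type and less RNA per cell cannot be told apart.

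The targeted gene was looked at before the chaperones. The brighter Pgr probe set (1439527_at) lay at 9.89, 9.94 and 10.01 (log2) in wild type and 8.56, 9.04 and 9.07 in null glands at 8 h, a difference of 1.06 (adjusted p = 0.0124), and differed by 0.36 at 24 h (adjusted p = 0.452). Another, 1455772_at, went the other way, with wild type minus null at −1.97 at 8 h and −2.10 at 24 h (adjusted p = 6.01e-05 and 9e-05), so Pgr checks the labels only in part. All 18 epithelial markers and all 11 white adipocyte markers measured lay above the array median on every array, and so did 14 to 20 of 20 skeletal muscle markers. Array medians lay between 5.84 and 5.91, and arrays within a group correlated at r from 0.965 to 0.993 over the tested probe sets. The control probe sets of the actin gene showed that the times differed in the balance of the 2 transcript ends. At 8 h the 5′ minus 3′ actin signal (log2) averaged −1.74 ± 0.21 for wild type pools and −1.64 ± 0.18 for null pools (SD, n = 3 each), and at 24 h −1.22 ± 0.06 and −1.23 ± 0.09. No 8 h array (−1.90 to −1.50) reached the 24 h range (−1.33 to −1.15). The matching Gapdh means ran from −0.63 in wild type at 8 h to −0.26 in null glands at 24 h.

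Sequences in front of the genes show the elements through which each response is known to act. RefSeq promoters (GRCm38.p6) were given for 32 of the 40 listed genes, and the 250 bases before the start were searched on both strands. The ER stress element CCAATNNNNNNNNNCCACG, bound by ATF6 together with a CCAAT-binding factor, was found for 7 of the 32 genes and for 35 of all 27025 genes with a promoter (0.13%). All 7 belong to ER folding: Hspa5 encodes the main ER HSP70 (BiP), Hsp90b1 the ER HSP90 (GRP94), Dnajc3 a BiP cochaperone, Creld2 an ER stress protein, Pdia6 a disulfide isomerase, and Calr and Canx the lectin chaperones calreticulin and calnexin. The element stands in capitals in the lines that follow, each read 5′ to 3′ on the gene's strand with 20 bases on either side.
Hspa5 (chr2:34772005-34772063, plus strand): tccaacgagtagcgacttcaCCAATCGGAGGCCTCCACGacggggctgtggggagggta
Hsp90b1 (chr10:86705513-86705676, minus strand): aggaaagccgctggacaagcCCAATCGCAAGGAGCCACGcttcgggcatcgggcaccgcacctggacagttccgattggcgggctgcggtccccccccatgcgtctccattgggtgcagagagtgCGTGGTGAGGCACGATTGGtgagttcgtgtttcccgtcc
Dnajc3 (chr14:118937807-118937865, plus strand): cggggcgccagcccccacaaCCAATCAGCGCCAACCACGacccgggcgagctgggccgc
Creld2 (chr15:88819500-88819558, plus strand): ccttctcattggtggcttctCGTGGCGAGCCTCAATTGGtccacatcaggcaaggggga
Pdia6 (chr12:17266471-17266529, plus strand): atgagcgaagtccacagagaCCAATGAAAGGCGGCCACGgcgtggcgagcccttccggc
Calr (chr8:84847055-84847113, minus strand): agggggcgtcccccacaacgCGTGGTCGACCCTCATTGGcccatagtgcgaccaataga
Canx (chr11:50325780-50325838, minus strand): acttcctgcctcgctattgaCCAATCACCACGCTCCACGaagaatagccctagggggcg
Hsp90b1 held 2 matches in opposite orientations, and in Creld2 and Calr the match ran against the gene. In Hspa5 it lay 65 to 47 bases before the start.

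A facing pair of heat shock units, GAANNTTC, was found for 7 of the 32 genes (Hspa1a, Hspa1b, Dnaja1, Hspb1, Hspd1, Hspe1 and Asns). This short motif is common, at 7.73% of all genes with a promoter. The windows of Hspa1a and Hspa1b were identical base for base, and probes may not tell the RNA of these near-identical gene copies apart. Hspd1 and Hspe1, which encode the mitochondrial chaperonin HSP60 and its cochaperonin, lie head to head and share 1 window read from opposite strands. They stand in capitals in the windows of 4 cytosolic members, printed because their array values are given below.
Hspa1a (chr17:34972233-34972280, minus strand): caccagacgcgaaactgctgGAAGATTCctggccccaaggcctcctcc
Hspa1b (chr17:34959315-34959362, minus strand): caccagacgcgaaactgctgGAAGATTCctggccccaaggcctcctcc
Dnaja1 (chr4:40722324-40722371, plus strand): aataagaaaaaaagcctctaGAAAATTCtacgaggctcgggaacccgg
Hspb1 (chr5:135887782-135887849, plus strand): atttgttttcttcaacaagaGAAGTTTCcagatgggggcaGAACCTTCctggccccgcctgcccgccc
The composite element of CHOP and ATF4, TGATGNAA, was found for Herpud1, Asns and Chac1, 9.38% of the members against 3.91% of all genes, and in Asns it overlapped the GAANNTTC match. A match is a description of letters and not a measured site.

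Across the set, differences between genotypes were small and differences between times were mostly towards lower signal at 24 h. Called means a limma p below 0.05 after Benjamini-Hochberg adjustment across the 23709 probe sets tested. Of the 77 tested, 1 was called between genotypes at 8 h and 1 at 24 h, both higher in wild type, which is 1.3% each time against 3.07% and 1.11% of all probe sets. Without wild type 8 h pool 3 the 8 h call was lost and 2 others ran the other way: Hspb1 (1422943_a_at, −0.51, adjusted p = 0.031) and Hspb8 (1417014_at, −0.45, adjusted p = 0.0447) were lower in wild type. None was called as a change of the genotype difference between the times, where 5 had an unadjusted p below 0.05 and 0.143% of all probe sets were called. From 8 h to 24 h, 3 probe sets rose and 8 fell in wild type glands (3.9% and 10.4%, against 1.53% and 3.69% of all). In null glands 0 rose and 8 fell (0% and 10.4%, against 0.814% and 3.59% of all). With the pool numbers as a block among the null arrays alone, the null counts were again 0 and 8. The labels do not say that these numbers pair arrays across time. With the block on all 12 arrays 1 rose and 13 fell. Single arrays decided many of these calls: the count was 1 in wild type without 8 h pool 1 or without 24 h pool 2, without wild type 8 h pool 3 it was 3 higher and 2 lower, and it was 0 in null glands without 8 h pool 3 or without 24 h pool 2. Quantile normalization moved the wild type split to 4 higher and 4 lower, and the null split to 1 higher and 7 lower, and median centring gave 3 and 10 in wild type and 0 and 9 in null glands.

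**Figure D1:**
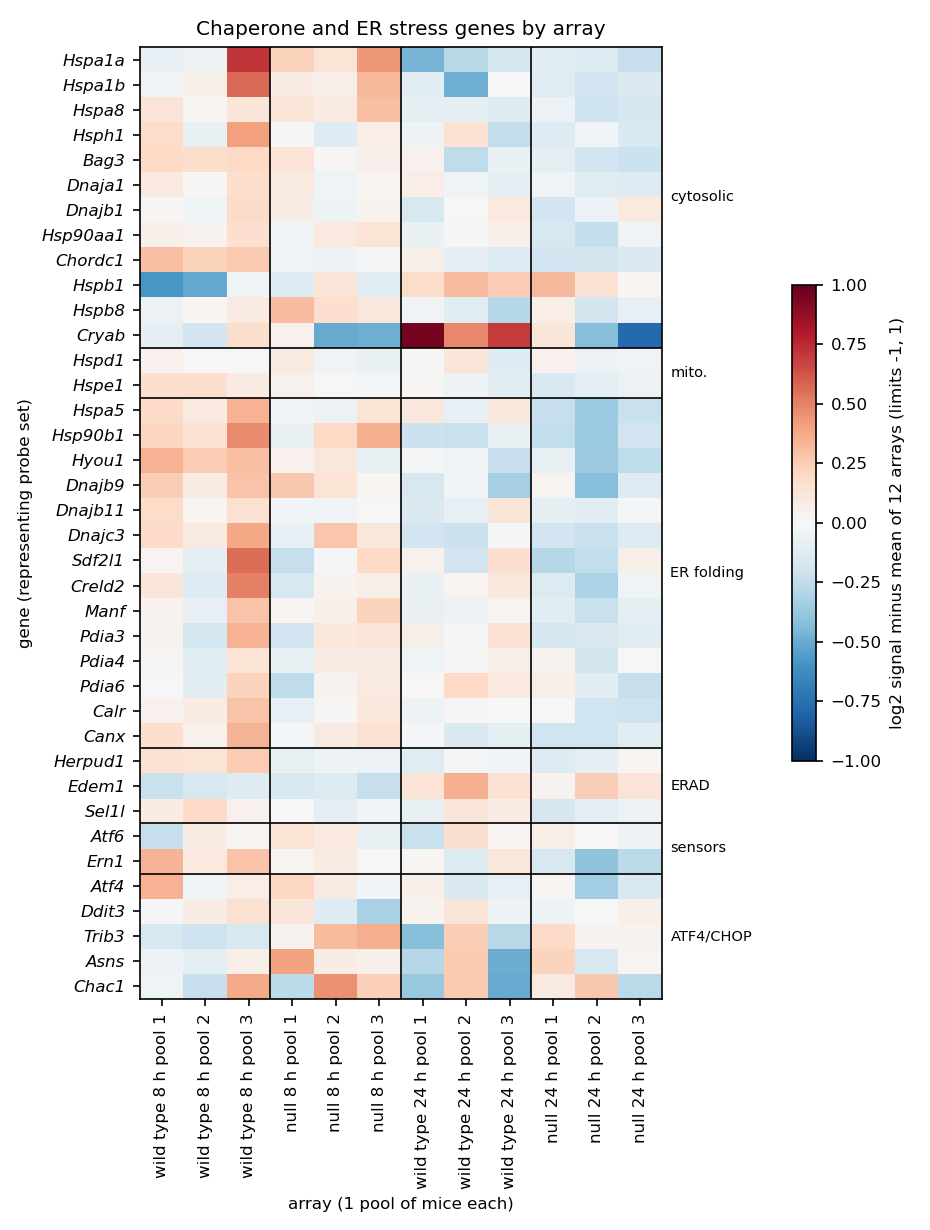
Heat map of the representing probe set of each of the 38 genes (top to bottom, grouped by role) on each of the 12 arrays (left to right, 1 pool of mice each); colour is the log2 signal minus the gene's mean over the 12 arrays with limits at −1 and 1. Wild type 8 h pool 3 is the highest over the ER folding genes (mean 0.33) and null 24 h pool 2 the lowest (−0.25), and Cryab stands out in wild type at 24 h.

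By 1 probe set per gene, 32 of the 38 genes lay below 0 from 8 h to 24 h in wild type (84.2%, median −0.16 on the log2 scale), where 52% of the 12002 genes tested did (median −0.01). In null glands 35 of the 38 did (92.1%, median −0.14), against 55.2% of all genes (median −0.02). The direction of both medians was kept under quantile normalization, at −0.10 and −0.08, and under median centring, at −0.19 and −0.17. Quantile normalization left fewer of the 38 below 0, 28 in wild type and 29 in null glands. The medians of all genes were then above 0, at 0.01 and 0.02. Few of these differences passed the test gene by gene. In wild type 2 representing probe sets rose and 3 fell, and in null glands 0 rose and 1 fell (also with the block among null arrays, and 1 rose and 5 fell with the block on all arrays); the shares of all genes were 1.45% and 3.82% in wild type and 0.733% and 3.83% in null glands. The actin 5′ minus 3′ signal differed between the times on the same arrays, and its part in these differences was not tested.

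Among the cytosolic chaperones, the inducible HSP70 genes were high on 1 array and did not pass in any comparison. Hspa1a (1452388_at) lay at 7.87, 7.91 and 8.68 (log2) in wild type and 8.19, 8.10 and 8.39 in null glands at 8 h. At 24 h it lay at 7.50, 7.68 and 7.78 in wild type and 7.85, 7.82 and 7.73 in null glands. All 24 h arrays lay below all 8 h arrays of the same genotype, with wild type 8 h pool 3 the highest of the 12. The change was −0.50 in wild type (SE 0.18, adjusted p = 0.137) and −0.42 in null glands (SE 0.18, adjusted p = 0.206); without wild type 8 h pool 3 the wild type change was −0.24. Hspa1b (1452318_a_at), the near-identical copy, lay at 11.01, 11.12 and 11.62 in wild type and 11.14, 11.12 and 11.39 in null glands at 8 h. Its 24 h values were 10.95, 10.57 and 11.05 in wild type and 10.94, 10.87 and 10.91 in null glands. The wild type ranges of the 2 times overlapped, and the changes of −0.39 (adjusted p = 0.18) and −0.31 (adjusted p = 0.289) were not called. Its other 2 probe sets gave changes in the same direction, at −0.42 and −0.37 in wild type (adjusted p = 0.227 and 0.429).

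Hspa8, the constitutive HSP70, fell in null glands by 3 of its 4 tested probe sets. The representing one (1455789_x_at) lay at 12.92, 12.88 and 13.10 in null glands at 8 h and at 12.74, 12.59 and 12.63 at 24 h. The wild type arrays lay at 12.93, 12.81 and 12.93, then at 12.71, 12.70 and 12.67. In both genotypes the times did not overlap; the fall was 0.31 on the log2 scale in null glands (1.24-fold, SE 0.07, adjusted p = 0.0312) and the wild type change was −0.20 (adjusted p = 0.132). The other called Hspa8 probe sets, 1420623_x_at and 1420622_a_at, fell by 0.37 (adjusted p = 0.0343) and by 0.69 (1.61-fold, SE 0.14, adjusted p = 0.0222) in null glands. The same 2 probe sets changed by −0.21 and −0.52 in wild type, with adjusted p = 0.183 and 0.0574. The call of the representing probe set was lost on leaving out null 8 h pool 3 or null 24 h pool 2 or 3 (adjusted p from 0.0811 to 0.123), and with an untrended prior (0.0533). Probe sets ending in _x_at or _s_at can bind more than 1 transcript, and Hspa8 has many processed pseudogenes, so these values may hold signal of other copies.

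The HSP40 gene Dnaja1, whose protein hands unfolded clients to HSP70, fell with time in both genotypes by 1 of its 3 probe sets. That probe set (1459835_s_at) lay at 9.76, 9.76 and 10.08 in wild type and 9.75, 10.04 and 10.03 in null glands at 8 h. It lay at 9.20, 9.20 and 9.34 in wild type and 9.40, 9.29 and 9.47 in null glands at 24 h. The times were apart in both genotypes, by −0.62 in wild type (1.54-fold, SE 0.11, adjusted p = 0.0118) and −0.55 in null glands (1.47-fold, SE 0.11, adjusted p = 0.0192). The wild type fall was also called with each of the 6 arrays of the comparison left out in turn, and the null fall was lost on leaving out null 8 h pool 2 or 3 or null 24 h pool 2 (adjusted p from 0.0759 to 0.087). The brighter Dnaja1 probe sets did not show it: 1416288_at changed by −0.12 in wild type and −0.12 in null glands, and 1460179_at by −0.06 and −0.03, all with adjusted p of 0.353 or more.

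Hsp90aa1, the stress-inducible cytosolic HSP90, gave values that depended on the probe set. Probe set 1437497_a_at fell in null glands, from 10.54, 10.55 and 10.69 to 10.25, 9.96 and 9.91 (−0.55, 1.47-fold, SE 0.13, adjusted p = 0.0347). In wild type it lay at 10.87, 10.75 and 10.70, then at 10.70, 10.24 and 10.26, with overlap (−0.37, adjusted p = 0.115). The brightest, 1438902_a_at, changed by −0.09 in wild type and −0.21 in null glands, and 1426645_at by 0.29 (adjusted p = 0.0809) and 0.01. So the 3 tested probe sets did not share a direction in wild type. The null call held without null 24 h pool 1 and was lost with any other array left out (adjusted p from 0.056 to 0.128), and it was lost under quantile normalization (0.079).

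Chordc1, an HSP90 cochaperone also called CHP-1, was the member called between genotypes at 8 h. It lay at 10.42, 10.35 and 10.38 in wild type and at 10.07, 10.07 and 10.11 in null glands at 8 h (1460645_at, its only probe set). At 24 h it lay at 10.18, 10.02 and 9.98 in wild type and 9.93, 9.94 and 9.98 in null glands. The genotypes did not overlap at 8 h, where wild type was higher by 0.30 (1.23-fold, SE 0.07, adjusted p = 0.0289). At 24 h they differed by 0.11, narrowly without overlap (adjusted p = 0.486). The change of that difference was not called (−0.19, adjusted p = 0.924). In wild type Chordc1 fell by 0.32 over time (1.25-fold, adjusted p = 0.0182), and the null change was −0.14 (adjusted p = 0.264). The times did not overlap in either genotype. The wild type fall was lost without wild type 8 h pool 1 or 2 or wild type 24 h pool 2 or 3 (adjusted p from 0.0513 to 0.0904), and under quantile normalization (0.0543). The 8 h call was lost with any of the 6 arrays left out, at adjusted p from 0.0679 to 0.133, and without the filter on low values (0.0517). By representing probe sets, 3.00% of all genes were called at 8 h, and Chordc1 was 1 of the 38 members.

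Among the small heat shock proteins, Hspb1 and Cryab rose in wild type and Hspb8 was not called. Hspb1 (HSP27), a holdase for unfolded proteins and actin, lay at 10.97, 11.04 and 11.51 in wild type at 8 h and at 11.73, 11.86 and 11.80 at 24 h (1422943_a_at). It rose in wild type by 0.62 (1.54-fold, SE 0.13, adjusted p = 0.0232), with no overlap of the times. Null arrays lay at 11.42, 11.67 and 11.45, then 11.87, 11.70 and 11.57, which overlapped (0.20, adjusted p = 0.427). The difference between the genotypes in this change was not called (0.43, adjusted p = 0.87). Its other probe set, 1425964_x_at, changed by 0.48 in wild type (adjusted p = 0.103). Leaving out 1 of the arrays wild type 8 h pool 1 or 2, or wild type 24 h pool 2 or 3, ended the call, at adjusted p from 0.0614 to 0.107. Hspb8, a partner of BAG3 in selective autophagy, changed by −0.16 in wild type and −0.26 in null glands by its brightest probe set (adjusted p = 0.338 and 0.129), and by up to 0.28 in wild type by the other 2.

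Cryab, which encodes the small heat shock protein αB-crystallin, showed the largest genotype difference of the set. Its representing probe set (1434369_a_at) lay at 10.41, 9.93 and 10.15 in wild type and 9.58, 9.02 and 8.68 in null glands at 24 h. At 8 h it lay at 9.36, 9.26 and 9.63 in wild type and 9.50, 8.95 and 8.96 in null glands. The genotypes were apart at 24 h and overlapped at 8 h. Wild type was higher by 1.07 at 24 h (2.10-fold, SE 0.22, adjusted p = 0.0458) and by 0.28 at 8 h (adjusted p = 0.615), and the change of that difference was not called (0.79, adjusted p = 0.769). By representing probe sets, 1.30% of all genes were called at 24 h. The other Cryab probe set, 1416455_a_at, lay at 7.95, 7.58 and 8.17 in wild type at 8 h and 9.28, 8.73 and 8.79 at 24 h. It rose by 1.04 over time in wild type (2.05-fold, SE 0.25, adjusted p = 0.0393), and the change of the representing one was 0.75 (adjusted p = 0.0762). Null glands held this probe set at 7.98, 7.46 and 7.50, then 8.42, 7.87 and 7.40, with overlap (0.25, adjusted p = 0.616). The 24 h genotype call was kept with 2 of the 6 arrays left out in turn and lost without wild type 24 h pool 1 or 3 or null 24 h pool 2 or 3 (adjusted p from 0.116 to 0.184), and it was lost under quantile normalization (0.0598), with an untrended prior (0.0516) and with only the groups compared (0.181). The wild type rise was lost with any of the 6 arrays left out (adjusted p from 0.0516 to 0.133).

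Skeletal muscle also holds much αB-crystallin, and muscle markers moved between arrays. The mean of 20 muscle markers, each relative to its own mean over the arrays, was 2.34, −0.34 and 0.62 (log2) in wild type at 24 h and 0.43, −1.32 and −0.72 in null glands at 24 h. The wild type array with the most muscle signal, pool 1, also had the highest Cryab value. At 8 h the muscle means were 1.44, −0.04 and 0.77 in wild type and 0.33, −3.21 and −0.31 in null glands. The 2 measures kept the same order within wild type at 24 h and within null glands at 8 h. Their order differed within wild type at 8 h and within null glands at 24 h. Between genotypes at 24 h the muscle means overlapped (wild type from −0.34 up, null glands up to 0.43). The Cryab values did not (wild type from 9.93 up, null glands up to 9.58). Of the 20 muscle markers 0 were called between genotypes at 24 h, with a median difference of 1.61, and 0 over time in wild type, with a median of 0.23. Epithelial markers also differed at 24 h, with means of 0.38, −0.04 and 0.47 in wild type and −0.39, −0.37 and −0.59 in null glands. Of these 18 markers 7 were called higher in wild type at 24 h. The part of muscle or epithelial RNA in the Cryab values was not tested. Hspb2, a small heat shock gene that lies next to Cryab, was higher in wild type by 0.86 at 24 h (1.81-fold, SE 0.18, adjusted p = 0.0452).

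**Figure D2:**
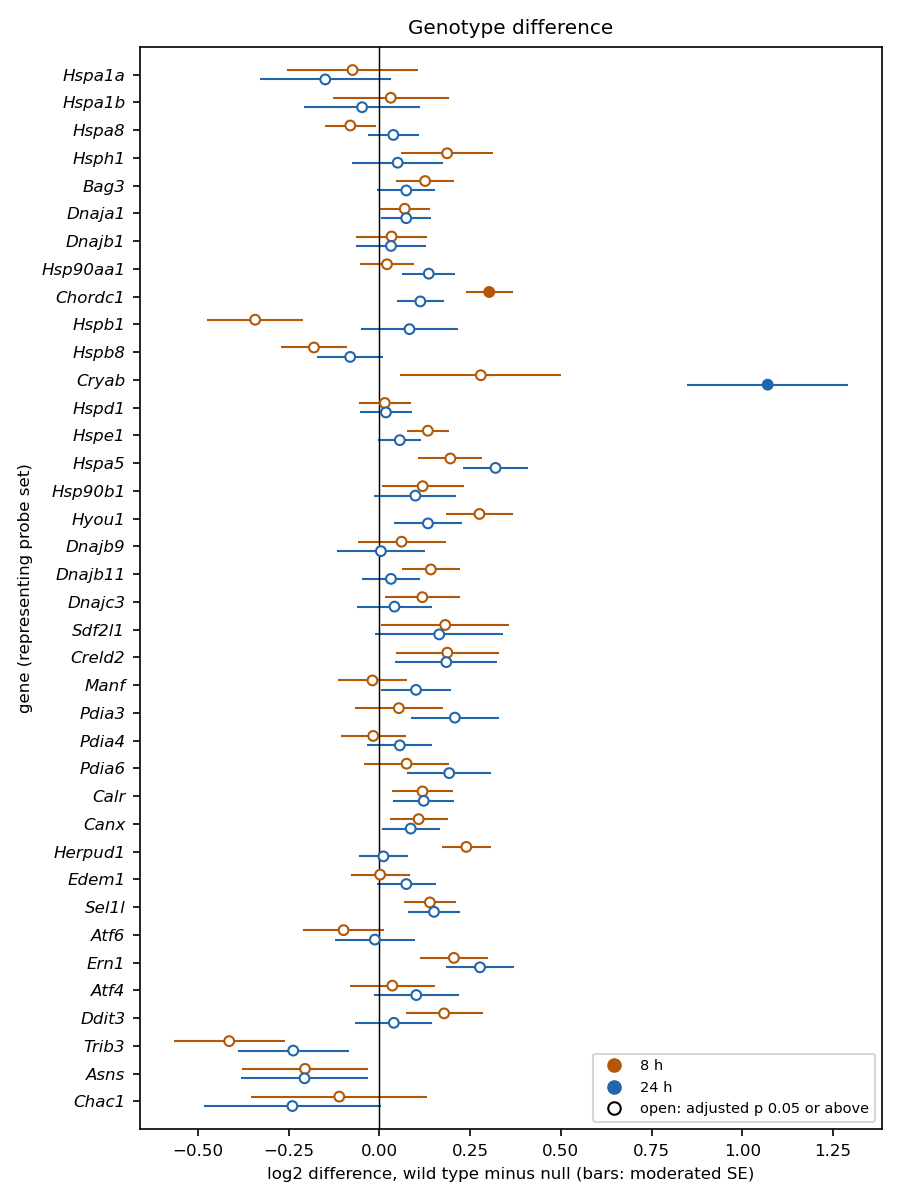
Difference between wild type and null glands (log2, horizontal axis) for the representing probe set of each of the 38 genes (vertical axis), at 8 h in orange and at 24 h in blue; bars are moderated standard errors and filled points are called at an adjusted p below 0.05. Chordc1 at 8 h (0.30) and Cryab at 24 h (1.07) are the filled points, and Trib3 at 8 h lies farthest below 0 (−0.41).

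The other cytosolic members were not called in any comparison. They were Hsph1 (HSP110, a nucleotide exchange factor of HSP70), Bag3 (another HSP70 cochaperone) and Dnajb1 (the inducible HSP40). Bag3 lay between 9.85 and 9.88 in wild type at 8 h and between 9.43 and 9.72 at 24 h, without overlap (−0.28, SE 0.08, adjusted p = 0.0671). Hsph1 changed by −0.22 in wild type (adjusted p = 0.332) and Dnajb1 by −0.08 (adjusted p = 0.702). The mitochondrial pair stayed near level by these values: Hspd1 changed by −0.01 in each genotype, and Hspe1 by −0.19 in wild type (SE 0.06, adjusted p = 0.0873) and −0.11 in null glands (adjusted p = 0.302).

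Of the 14 ER chaperone and folding genes, 13 lay below 0 over time in wild type and 14 in null glands, with medians of −0.16 and −0.20. Quantile normalization left 11 and 12 below 0. Between genotypes 12 of the 14 lay above 0 at 8 h (median 0.12) and 14 at 24 h (median 0.11), 13 at 24 h under either other scaling, and no representing probe set was called in either. Of all genes 47.4% lay below 0 at 8 h and 46.8% at 24 h (median 0.01 each). The mean of the 14 genes relative to their own means was highest in wild type 8 h pool 3 (0.33) and lowest in null 24 h pool 2 (−0.25). Markers of secretory cells moved on the same arrays. Plasma cell markers averaged −0.65 (wild type) and −0.02 (null) at 8 h and 0.23 and 0.43 at 24 h, relative to each gene's mean. Over time in wild type 2 of 9 were called higher and 1 lower, against 1.45% and 3.82% of all genes. Between genotypes 2 were lower in wild type at 8 h and 1 at 24 h. Of 18 epithelial markers, 7 were higher in wild type at 24 h (median 0.77). At 8 h 2 were higher and 3 lower (median 0.04). Of all genes 3.00% were called between genotypes at 8 h and 1.30% at 24 h. The part of these markers in the ER chaperone values was not tested.

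Hspa5 (BiP), the chaperone that also holds the ER sensors inactive, is the gene the unfolded protein response is most often read from. Its brightest probe set (1416064_a_at) lay at 12.15, 12.05 and 12.31 in wild type and 11.93, 11.90 and 12.10 in null glands at 8 h. At 24 h it lay at 12.08, 11.87 and 12.07 in wild type and 11.73, 11.59 and 11.74 in null glands. The genotypes did not overlap at 24 h, and the difference of 0.32 was not called (1.25-fold, SE 0.09, adjusted p = 0.126). Over time this probe set changed by −0.16 in wild type (adjusted p = 0.309) and −0.29 in null glands (adjusted p = 0.0879). With the replicate block on all 12 arrays the 24 h difference and the null change were called (adjusted p = 0.0228 and 0.0193).

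Another Hspa5 probe set, 1427464_s_at, fell in both genotypes. It lay at 11.34, 11.25 and 11.57 in wild type and 11.16, 11.25 and 11.43 in null glands at 8 h, and at 10.93, 10.82 and 11.03 in wild type and 10.73, 10.65 and 10.79 in null glands at 24 h. Every 24 h array lay below every 8 h array. The fall was 0.46 on the log2 scale in wild type (1.38-fold, SE 0.10, adjusted p = 0.0229) and 0.56 in null glands (1.47-fold, SE 0.10, adjusted p = 0.0116). A dimmer one, 1447824_x_at, changed by −0.06 and 0.01. The wild type fall of 1427464_s_at was lost without wild type 8 h pool 1 or 3 or wild type 24 h pool 1 or 2 (adjusted p from 0.054 to 0.0774), and the null fall on leaving out null 8 h pool 3 or null 24 h pool 2 (0.0583 and 0.054).

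Hsp90b1 (GRP94), the ER HSP90, fell by both of its probe sets in wild type. The brighter (1415889_a_at) lay at 11.72, 11.66 and 11.97 in wild type and 11.43, 11.70 and 11.86 in null glands at 8 h. It lay at 11.29, 11.28 and 11.43 in wild type and 11.25, 11.13 and 11.31 in null glands at 24 h. The times were apart in both genotypes, by −0.45 in wild type (1.37-fold, SE 0.11, adjusted p = 0.0432) and −0.43 in null glands (adjusted p = 0.0545). The other (1438040_a_at) fell from 10.87, 10.54 and 10.98 to 10.26, 9.85 and 9.92 in wild type, by 0.78 (1.72-fold, SE 0.16, adjusted p = 0.0182). In null glands it fell from 10.50, 10.61 and 10.96 to 10.06, 9.70 and 9.95, by 0.79 (1.73-fold, adjusted p = 0.0202). The wild type call of the brighter probe set was lost with any of the 6 arrays left out, at adjusted p from 0.0647 to 0.117, and also without the filter on low values (0.0596), under quantile normalization (0.0765), with an untrended prior (0.0555) and with only the groups compared (0.0679). That of the other was lost without wild type 8 h pool 1 or 3 or wild type 24 h pool 2 or 3 (0.0576 to 0.0845), and its null call on leaving out null 8 h pool 2 or 3 or null 24 h pool 2 or 3 (0.0507 to 0.0863).

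Hyou1 (GRP170), a nucleotide exchange factor of BiP, fell by both tested probe sets in wild type. The brighter (1423291_s_at) lay at 9.08, 8.99 and 9.04 in wild type and 8.78, 8.84 and 8.66 in null glands at 8 h. It lay at 8.72, 8.70 and 8.50 in wild type and 8.66, 8.37 and 8.48 in null glands at 24 h. Wild type at 8 h lay above the other groups on all 3 arrays, and fell by 0.40 over time (1.32-fold, SE 0.09, adjusted p = 0.0328). Its 8 h difference from null glands was 0.28 (adjusted p = 0.163) and the null change −0.26 (adjusted p = 0.14, with overlap of the times). The other (1423290_at) fell in wild type by 0.69 (1.62-fold, SE 0.15, adjusted p = 0.0253), from 7.59, 7.31 and 7.70 to 6.96, 6.83 and 6.73. In null glands it lay at 7.03, 7.49 and 6.99, then 7.12, 6.85 and 6.80, with overlap (−0.25, adjusted p = 0.384). The brighter call held without wild type 24 h pool 1 and was lost with any other array left out (adjusted p from 0.0587 to 0.13), and it was lost without the filter (0.0516) and under quantile normalization (0.0636). The other was lost without wild type 8 h pool 1 or 3 or wild type 24 h pool 2 or 3 (0.0649 to 0.105).

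The remaining 11 ER folding genes were not called. Among the BiP cochaperones, Dnajb9 changed by −0.38 in wild type and −0.32 in null glands (adjusted p = 0.0968 and 0.155), Dnajc3 by −0.36 and −0.29 (adjusted p = 0.0647 and 0.135), and Dnajb11 by −0.16 and −0.05. The lectin chaperones Canx and Calr changed by −0.27 and −0.14 in wild type and by −0.24 and −0.15 in null glands. The disulfide isomerase genes Pdia3, Pdia4 and Pdia6 lay within 0.17 of 0 in both genotypes. Pdia6 in wild type, at 0.06, was the ER folding gene above 0. The stress-inducible genes Sdf2l1, Creld2 and Manf changed by −0.16 to −0.12 in wild type and by −0.24 to −0.14 in null glands, and Sdf2l1 and Creld2 were highest of all in wild type 8 h pool 3, at 8.32 and 8.99.

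The 7 genes whose promoters are printed with an ER stress element were compared as they stand. In wild type 6 of the 7 lay below 0 over time (median −0.16, from −0.45 for Hsp90b1 to 0.06 for Pdia6), and in null glands 7 did (median −0.24). Between genotypes all 7 lay above 0 at 8 h (median 0.12) and at 24 h (median 0.12). So did 12 and 14 of the 14 ER folding genes, and 28 and 31 of all 38 members. Of all genes 47.4% lay below 0 at 8 h and 46.8% at 24 h. Of the 7 with paired heat shock units, 6 lay below 0 in each genotype over time, and Hspb1 was the exception both times.

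**Figure D3:**
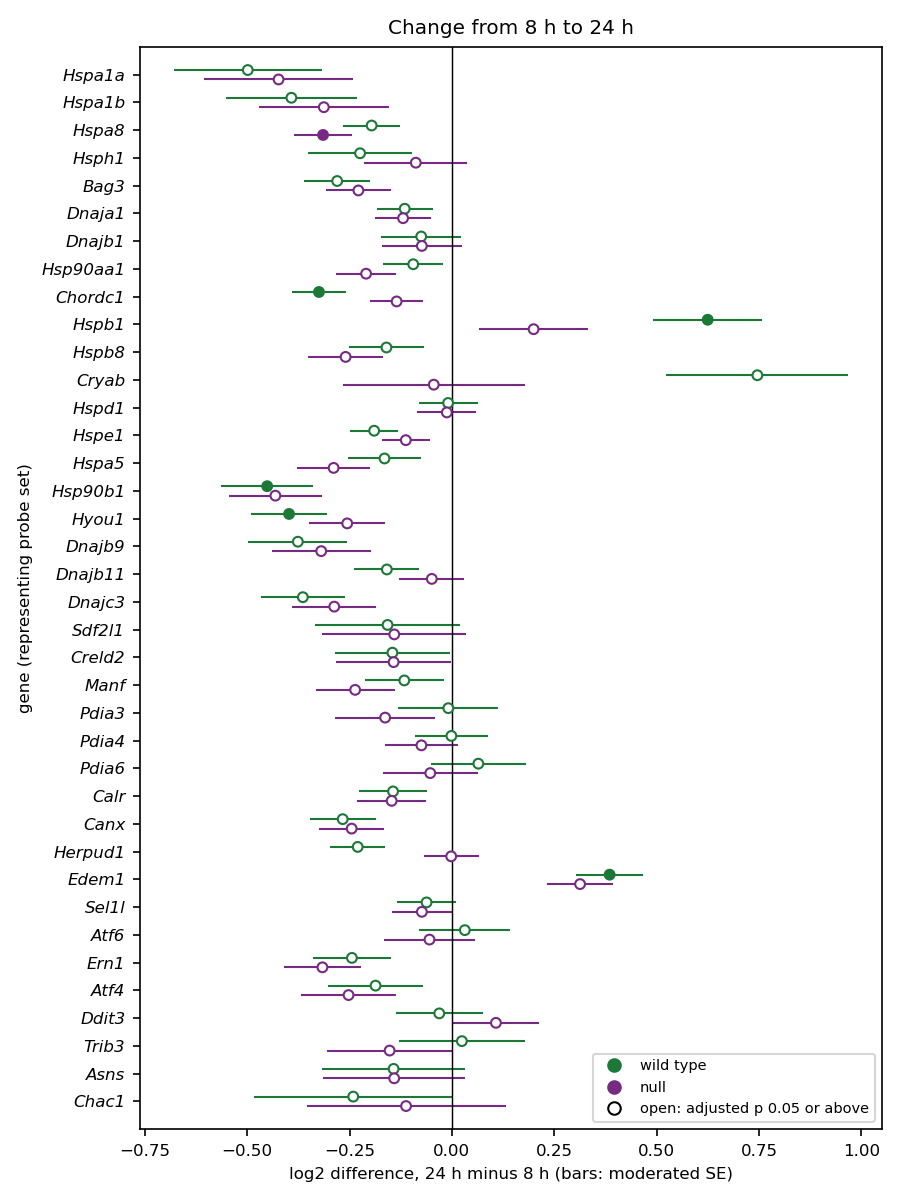
Change from 8 h to 24 h of progesterone (log2, horizontal axis) for the representing probe set of each of the 38 genes (vertical axis), in wild type (green) and null glands (purple); bars are moderated standard errors and filled points are called at an adjusted p below 0.05. Most points lie left of 0; Chordc1, Hsp90b1 and Hyou1 (wild type) and Hspa8 (null) are filled there, and Hspb1 and Edem1 are filled on the right.

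The ER degradation genes did not move as a group. Herpud1, a membrane protein of the degradation complex, lay at 9.34, 9.22 and 9.41 in wild type and 8.98, 9.09 and 9.11 in null glands at 8 h (1435626_a_at). At 24 h the order of the genotypes was the opposite, with 8.97, 9.11 and 9.02 in wild type and 9.17, 9.19 and 9.23 in null glands. It fell in wild type by 0.29 (1.22-fold, SE 0.07, adjusted p = 0.0467) and changed by 0.13 in null glands (adjusted p = 0.326). The change of the genotype difference was not called (−0.42, adjusted p = 0.253). The wild type fall was lost with any of the 6 arrays left out, at adjusted p from 0.0567 to 0.159, and without the filter (0.0799), under quantile normalization (0.0648) and with an untrended prior (0.0574). The brighter Herpud1 probe set (1448185_at) lay at 9.74, 9.73 and 9.85 in wild type and 9.52, 9.55 and 9.53 in null glands at 8 h, with no overlap, and that difference of 0.24 was not called (adjusted p = 0.0894). At 24 h it differed by 0.01 between genotypes. It changed over time by −0.23 in wild type (adjusted p = 0.0726) and by 0.00 in null glands (adjusted p = 0.993).

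Edem1, a lectin that sends misfolded glycoproteins to degradation, rose in wild type by its brighter probe set (1451218_at). This lay at 9.43, 9.49 and 9.52 in wild type and 9.49, 9.52 and 9.42 in null glands at 8 h, and at 9.79, 10.01 and 9.80 in wild type and 9.69, 9.90 and 9.79 in null glands at 24 h. The times were apart in both genotypes, by 0.39 in wild type (1.31-fold, SE 0.08, adjusted p = 0.0221) and 0.31 in null glands (adjusted p = 0.0526). The other Edem1 probe set (1424065_at) changed in the opposite direction, by −0.20 in wild type (adjusted p = 0.301) and −0.12 in null glands. The wild type rise was lost without wild type 8 h pool 1 or 2 or wild type 24 h pool 2 (adjusted p from 0.062 to 0.102). Sel1l, the scaffold of the ER ubiquitin ligase, changed by −0.06 in wild type and −0.07 in null glands.

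The ER sensors and the ATF4 arm gave 1 call, in Atf4. Ern1 (IRE1), the kinase and RNase sensor, lay between 8.68 and 8.92 in wild type and 8.58 and 8.66 in null glands at 8 h, and between 8.44 and 8.69 and 8.17 and 8.41 at 24 h. Wild type was higher by 0.21 and 0.28 without overlap, and neither difference was called (adjusted p = 0.323 and 0.223). Its null change was −0.32 (adjusted p = 0.0818). Atf6, the membrane-bound sensor, changed by 0.03 in wild type and −0.05 in null glands. Atf4 (1448135_at), the factor translated when eIF2 is phosphorylated, lay at 11.03, 10.65 and 10.75 in wild type and 10.90, 10.78 and 10.66 in null glands at 8 h. At 24 h it lay at 10.74, 10.54 and 10.60 in wild type and 10.70, 10.34 and 10.53 in null glands. Those ranges overlapped, with changes of −0.19 and −0.25 (adjusted p = 0.391 and 0.246).

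The dimmer Atf4 probe set (1438992_x_at) fell in null glands, from 8.66, 8.95 and 9.22 to 8.13, 7.88 and 8.34, by 0.83 (1.78-fold, SE 0.19, adjusted p = 0.0332). In wild type it lay at 9.15, 9.13 and 9.34, then at 8.80, 8.13 and 8.71, with no overlap (−0.66, adjusted p = 0.0666). The null fall was lost on leaving out null 8 h pool 2 or 3 or null 24 h pool 1 or 2 (adjusted p from 0.0576 to 0.131). Ddit3 (CHOP), the death-linked factor of the response, lay at 8.02, 8.11 and 8.19 in wild type and 8.16, 7.91 and 7.72 in null glands at 8 h. At 24 h it lay at 8.07, 8.17 and 7.99 in wild type and 7.99, 8.03 and 8.09 in null glands. All 4 groups overlapped, and its changes were −0.03 and 0.11.

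The ATF4 and CHOP targets Trib3, Asns and Chac1 were not called. Trib3, a pseudokinase, lay between 6.90 and 6.95 in wild type and between 7.14 and 7.47 in null glands at 8 h, a difference of −0.41 (SE 0.15, adjusted p = 0.206). Its other probe set differed by −0.62 (adjusted p = 0.097), also without overlap. Asns (asparagine synthetase) ranged from 9.38 to 10.14 within wild type at 24 h, and Chac1, an enzyme that breaks down glutathione, from 7.02 to 7.79. Wild type 24 h pool 2 held the high end of both.

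**Figure D4:**
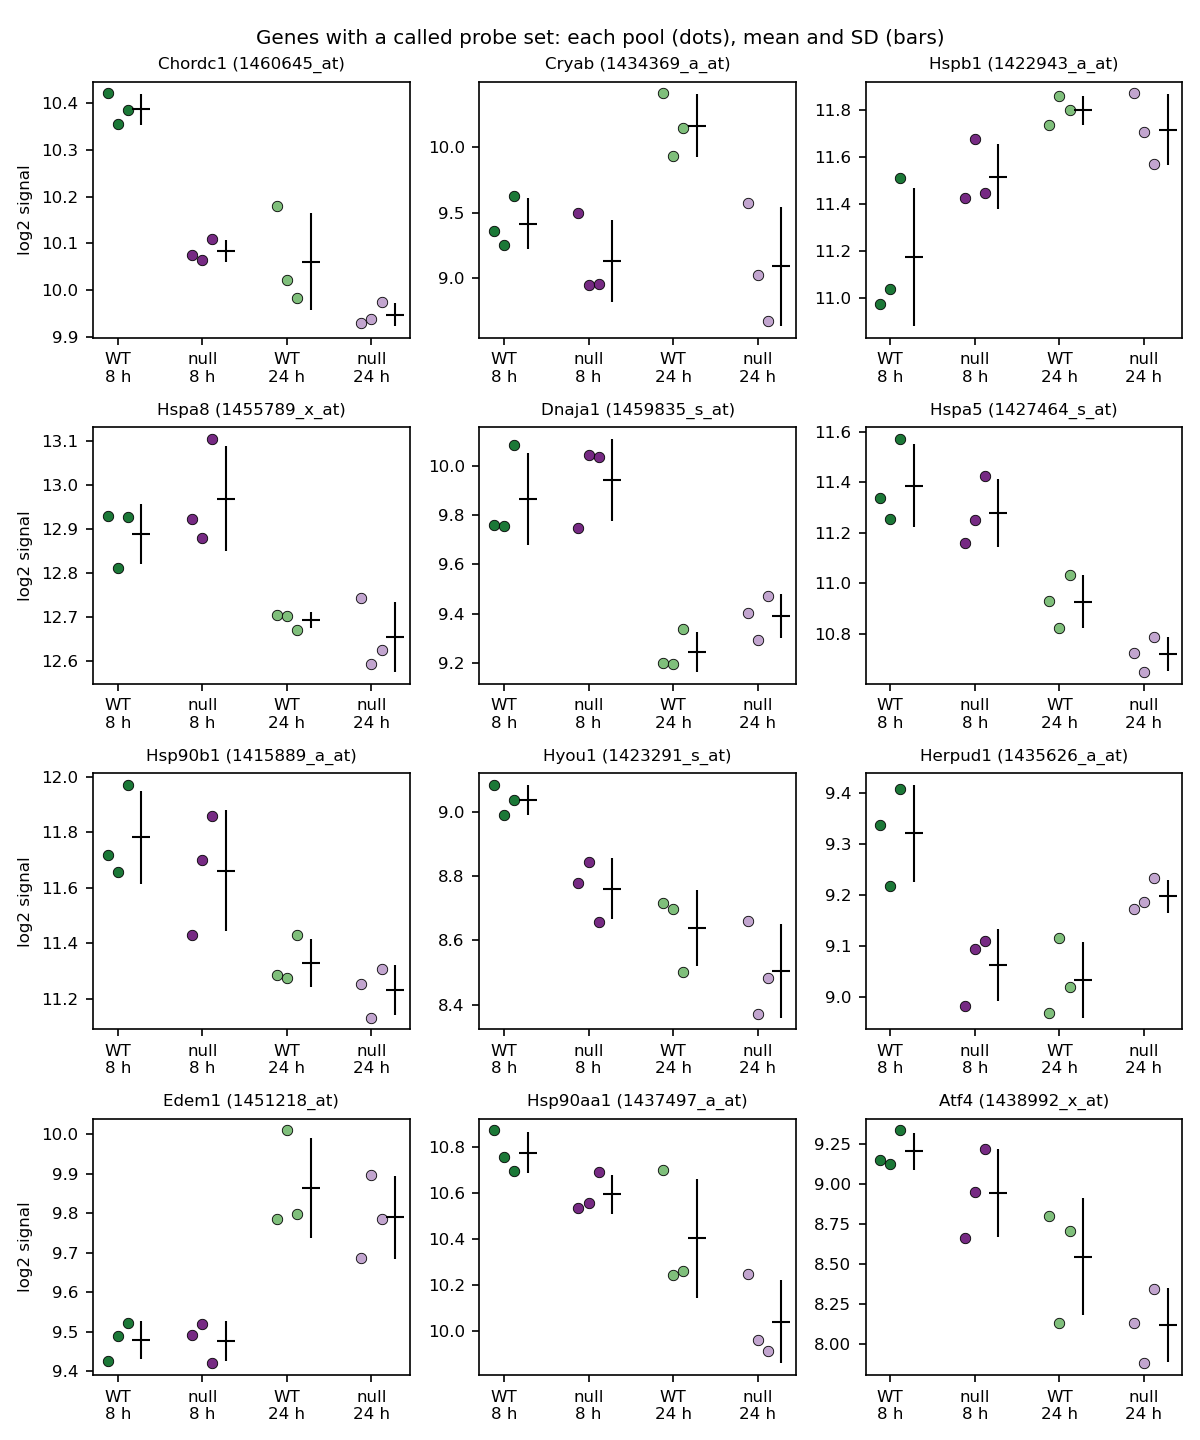
Log2 signal on each array (dots, 3 pools in each group) with the group mean and SD (bars) for the called probe set of each of the 12 genes with a call; the brighter one is shown where a gene had several, and the vertical scale differs by panel. Between genotypes Chordc1 was called at 8 h and Cryab at 24 h. In the panels of Chordc1, Hspa8, Dnaja1, Hspa5, Hsp90b1 and Atf4 the 24 h dots of each genotype lie below its 8 h dots.

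The probe sets of a gene often differed in size of change. Of 24 genes with at least 2 tested probe sets, 8 had a called one over time in wild type, and in 2 of them, Hsp90b1 and Hyou1, all tested probe sets were called. In null glands 6 had a called one and 0 had all called, also with the block among null arrays. Probe sets of the same gene lay on both sides of 0 in 6 genes in wild type and 8 in null glands. The median gap between the lowest and the highest probe set of a gene was 0.30 in wild type and 0.18 in null glands. Of the probe sets called over time, 3 were called in both genotypes (27.3% of the wild type and 37.5% of the null calls): those of Dnaja1, Hspa5 and Hsp90b1.

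**Figure D5:**
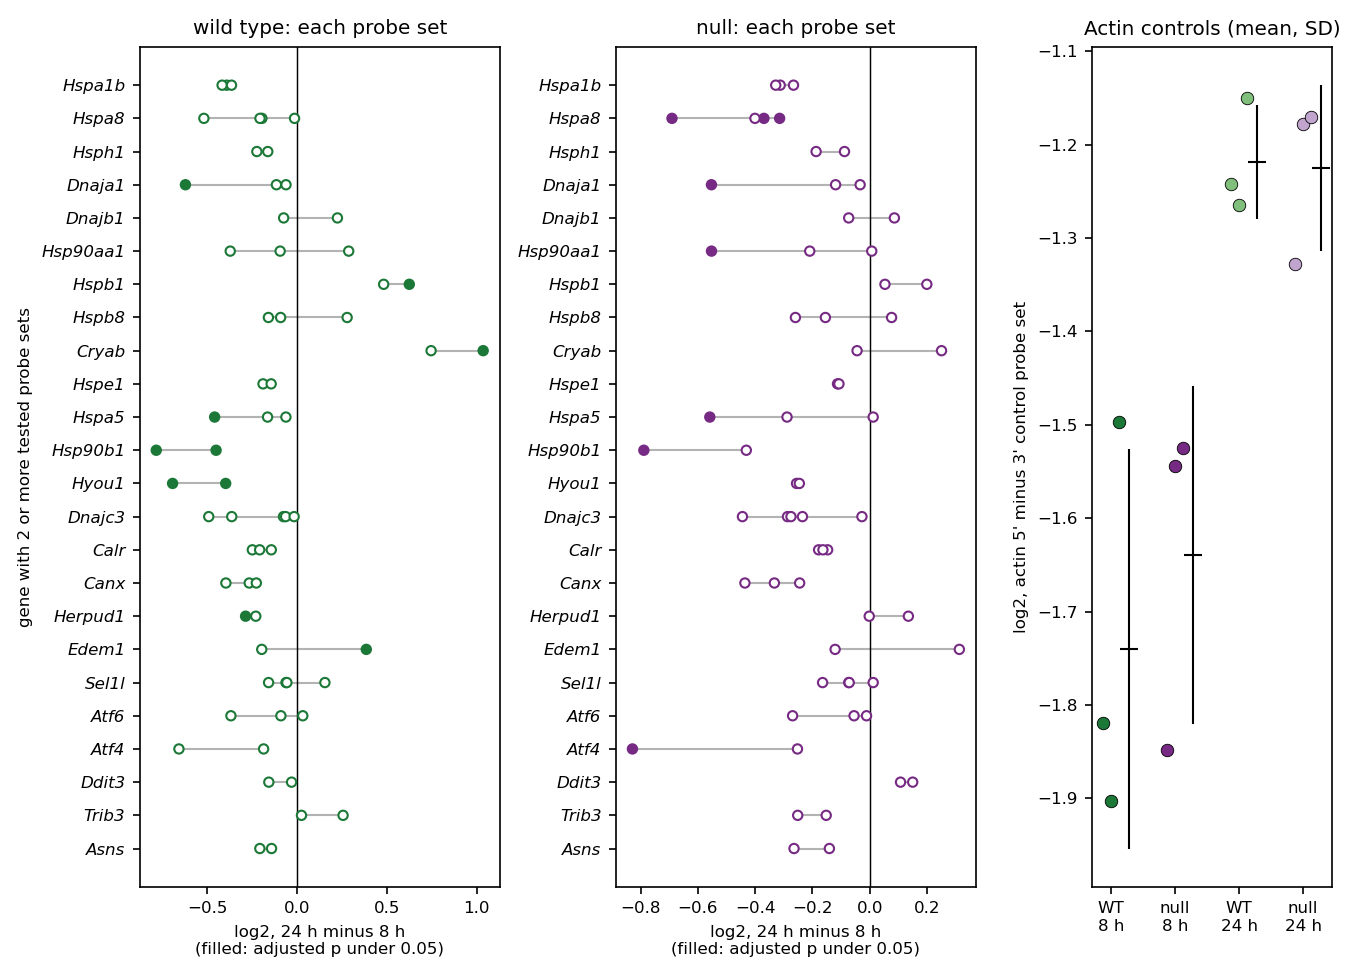
Left and middle, change from 8 h to 24 h (log2) of every tested probe set of the 24 genes with at least 2, in wild type and null glands; filled points are called at an adjusted p below 0.05 and a grey line joins probe sets of a gene. Right, 5′ minus 3′ actin control signal (log2) of each array with group mean and SD, where the 8 h arrays (−1.90 to −1.50) and the 24 h arrays (−1.33 to −1.15) do not overlap.

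Other genes of the same pathways were taken from lists. Of 41 tested further heat shock genes and cochaperones, 1 rose and 4 fell over time in wild type (median −0.07), and 0 rose and 1 fell in null glands (median −0.09). Of all genes 1.45% rose and 3.82% fell in wild type, and 0.733% rose and 3.83% fell in null glands. Hspb2 rose by 0.77 (1.70-fold, SE 0.18, adjusted p = 0.0313). Serpinh1 (HSP47, the collagen chaperone) fell by 0.47 (adjusted p = 0.0247), Dnajb4 by 0.36 (adjusted p = 0.0446), the chaperonin subunit gene Cct6a by 0.34 (adjusted p = 0.0341) and Dnajb6 by 0.25 (adjusted p = 0.048). Dnajb4 fell in null glands too, by 0.44 (adjusted p = 0.0229). Between genotypes 0 were called at 8 h and 1, Hspb2, at 24 h, against 3.00% and 1.30% of all genes.

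Of 55 tested further genes of ER folding, secretion and degradation, 0 rose and 7 fell in wild type, and 0 rose and 4 fell in null glands, with medians of −0.10 and −0.09, against 3.82% and 3.83% of all genes that fell. The list holds genes of the machines that bring proteins into the ER and sugar-tag them, and also folding, degradation and stress factor genes. Rpn1 and Rpn2, subunits of the oligosaccharyl transferase, fell by 0.45 and 0.37 in wild type (adjusted p = 0.0144 and 0.0181) and by 0.41 and 0.38 in null glands (adjusted p = 0.0211 and 0.0181). The translocon gene Ssr3 fell by 0.33 in wild type (adjusted p = 0.0165) and by 0.30 in null glands (adjusted p = 0.0274). Atf6b, the paralog of Atf6, fell by 0.49 (adjusted p = 0.0369) and 0.50 (adjusted p = 0.0371). The proline isomerase gene Fkbp14 fell by 0.63 in wild type (adjusted p = 0.0383). Rpn1 and the translocon gene Ssr1 were higher in wild type at 8 h, by 0.40 (1.32-fold, SE 0.08, adjusted p = 0.024) and 0.31 (1.24-fold, SE 0.06, adjusted p = 0.015), and 0 of the 55 were called at 24 h, against 3.00% and 1.30% of all genes.

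Of 30 tested further genes of the eIF2 and ATF4 program, 0 rose and 3 fell in wild type and 0 rose and 4 fell in null glands, where 3.82% and 3.83% of all genes fell. Cebpb, a transcription factor, fell by 0.62 in wild type (adjusted p = 0.00975) and 0.69 in null glands (adjusted p = 0.00645). Ppp1r15a (GADD34), the phosphatase subunit that ends eIF2 phosphorylation, fell by 0.39 (adjusted p = 0.0253) and 0.35 (adjusted p = 0.0448). The amino acid carrier genes Slc3a2 and Slc7a5 fell by 0.65 each in null glands (adjusted p = 0.00137 and 0.0236), and Slc3a2 fell by 0.33 in wild type (adjusted p = 0.0278). Cth, which makes cysteine, was higher in wild type by 0.91 at 8 h (1.89-fold, SE 0.17, adjusted p = 0.0123) and 0.87 at 24 h (adjusted p = 0.0306), while Eprs, a tRNA synthetase gene, was higher by 0.34 at 8 h (adjusted p = 0.0298). These were the calls between genotypes, 2 of the 30 at 8 h and 1 at 24 h, against 3.00% and 1.30% of all genes. Immediate early genes, some of them also stress genes, fell in null glands in 6 of 13 tested (median −0.62) and in wild type in 1 of 13 (median 0.00). Epithelial markers fell in null glands in 7 of 18 (median −0.50), and in wild type 3 rose and 1 fell (median 0.29). Those counts too stand against 3.83% of all genes that fell in null glands and 3.82% in wild type. The part of either list in the chaperone values was not tested.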

How the data were processed

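RNA of 12 mammary gland pools was measured on Affymetrix arrays, 3 in each of 4 groups. The deposited log2 values of 45101 probe sets were used as given. The log2 scale was judged from their range, and normalization between arrays from array medians that nearly coincide. MAS5 is named in the submitters' processing notes, without its role. How probes were summarized and normalized is otherwise not given in the sources used here. With 3 arrays in a group, their number limits precision, and p-values measure the spread between pools.

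Gene names came from GEO's annotation of the platform, in which 34945 had 1 symbol, 932 several and 9160 none, and only those with 1 symbol were named. Those above the array median on at least 3 arrays were tested (23709). limma 3.58.1 in R 4.3.3 (lmFit, eBayes with a trended prior) estimated 4 group means from the 12 arrays (residual degrees of freedom: 8), and p-values were adjusted by Benjamini-Hochberg. SE is the moderated standard error (log2). The 5 comparisons share arrays. The fit was tested on simulated data. Figures were drawn with matplotlib 3.10.9, and motifs were searched in RefSeq promoters.

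The members and the gene lists were chosen with earlier results of these data known. A member is represented by its brightest probe set. Array values are given for members with a called probe set and for Hspa1a, Hspa1b, Hspa8, Hspa5, Hsp90b1, Ddit3 and Atf4, and other pathway genes are named where called, up to 4 in each direction. The labels do not say that a pool number marks a shared batch. Deviations from group means correlated in all 3 same-numbered null pairs across time (r = 0.52, 0.26 and 0.38), so a block among the null arrays was fitted beside the main fit. The p-values of single genes, null glands included, come from the main fit, which has no block, unless a block is named. With the block among null arrays the 8 null calls were kept, Hsp90aa1 1437497_a_at at adjusted p = 0.0489. Hsp90b1 1415889_a_at remained uncalled in null glands (0.0504). Other comparisons were given no block of their own, though single pairs correlated as much. These were wild type pool 1 across time (r = 0.45) and pool 3 between genotypes at 24 h (r = 0.43). The planned block covers all 12 arrays and so also pairs wild type arrays; a block among the null arrays alone was added after seeing the data. Alternatives were filters on low values, quantile normalization, median centring, a floor, an untrended prior, only the groups compared, the replicate block, 1 probe set per gene and each array left out.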

Additional observations from a re-analysis of the deposited data

Results flagged for a closer look

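For Herpud1 by probe set 1435626_a_at, every wild type pool at 24 h lay below every wild type pool at 8 h, and every null pool at 24 h lay above every null pool at 8 h. The wild type fall was called (−0.29 on the log2 scale, adjusted p = 0.0467), and the null change was not (0.13, adjusted p = 0.326). The test of the difference between the 2 changes did not pass (−0.42, adjusted p = 0.253). The brighter Herpud1 probe set, 1448185_at, changed by −0.23 in wild type and 0.00 in null glands, and neither was called.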

How the results depend on the processing

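No called value of a named member changed sign under any alternative run, but the direction of 2 counts turned without wild type 8 h pool 3. Genotype at 8 h gave 1 call, 0 without the filter on low values and 0 to 2 with an array left out; without wild type 8 h pool 3 the 2 calls were both lower in wild type, where the 1 call had been higher. Genotype at 24 h gave 1 call, 0 under quantile normalization, 0 with an untrended prior, 0 with only the groups compared, 3 with the replicate block and 0 to 2 with an array left out. The change of the genotype difference gave 0 throughout. Time in wild type gave 11 calls, 5 with only the groups compared, 19 with the replicate block, 5 with 1 probe set per gene and 1 to 9 with an array left out (1, 4 and 5 on leaving out wild type 8 h pool 1, 2 and 3; 9, 1 and 3 on leaving out wild type 24 h pool 1, 2 and 3); the 5 were 3 higher and 2 lower, against 3 and 8. Time in null glands gave 8 calls, 2 with only the groups compared, 14 with the replicate block on all arrays, 8 with the replicate block among null arrays alone (added after seeing the data), 2 with 1 probe set per gene and 0 to 8 with an array left out (8, 2 and 0 without null 8 h pool 1, 2 and 3; 8, 0 and 3 without null 24 h pool 1, 2 and 3). Of 21 calls of single member probe sets, 14 were lost with only the groups compared (adjusted p from 0.0507 to 0.181). Fewer arrays or probe sets enter some of these fits; the cause was otherwise not tested. The labels do not say what same-numbered arrays share. Apart from null glands across time, r of their deviations from group means ran from −0.04 to 0.45. In none of those other comparisons was r above 0.1 in every pair. The median SE of a member's difference was 0.0968 on the log2 scale, and 13 of the 90 probe sets were too dim to be tested.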
